A study of Homo sapiens with 9 samples.

Results

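The GALNT genes encode the polypeptide N-acetylgalactosaminyltransferases, the enzymes that start mucin-type O-linked glycans. The 10 described here, GALNT1, GALNT2, GALNT3, GALNT4, GALNT5, GALNT6, GALNT7, GALNT10, GALNT12 and GALNT14, were taken by symbol from a table of 63657 Ensembl genes and were picked with their values in that table known. The human table holds 20 GALNT genes in all, and the other 10 are described beside them. RNA was measured in the established human breast cancer line MDA-MB-231, which is triple-negative, in 2 shControl and 2 shLOXL2 libraries. shLOXL2 cells were infected with a short hairpin RNA against LOXL2, a lysyl oxidase-like enzyme to which oxidation of histone H3 lysine 4 is attributed, and shControl cells are the labelled control. How many hairpins or infected pools stand behind the libraries, and the time after infection, are not stated in those sources. The comparison asks which GALNT transcripts differed once LOXL2 was depleted. The labels do not say whether the 2 libraries of a group are separate cultures, so each p-value sets the difference against a spread that may be purely technical.

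A typical GALNT enzyme sits in the Golgi and moves N-acetylgalactosamine from the donor UDP-GalNAc onto a serine or threonine of a passing protein. The resulting sugar is the Tn antigen, which C1GALT1 and others then extend and sialyltransferases cap. The isoenzymes overlap in what they modify but differ in preference: GALNT1 and GALNT2 act on bare peptides, while GALNT7 and GALNT10 favour peptides that already carry a sugar. Changes in this family, and short, truncated O-glycans, are well known in breast carcinoma.

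The hairpin's target, LOXL2, was measured at 85.5 and 84.5 FPKM in the controls and at 15.2 and 12.1 FPKM in shLOXL2, the direction that the labels give. FPKM is fragments per kilobase of transcript scaled to a library's mapped fragments, so levels of different genes can be compared. The FPKM of all genes summed to between 1221571 and 1369375 per library, and mitochondrial genes took 18.55 to 22.83% of the sum. Of the line's own markers, VIM, CD44 and CAV1 summed to 2703 to 2737 FPKM, most of it VIM (2011 to 2104 FPKM). Within that sum CD44 went from 456.7 and 447.3 FPKM in the controls to 348.8 and 340.0 FPKM in shLOXL2. CAV1 went the other way, from 244.8 and 237.0 to 275.1 and 281.8 FPKM. ESR1 and PGR were below 0.1 FPKM in every library. CDH1 was low but higher in shLOXL2, at 1.43 and 1.51 FPKM against 0.339 and 0.837 FPKM in the controls. Of 8 markers of haematopoietic, endothelial and fibroblast cells, 2 (CD3E and PECAM1) were at 0 in all libraries and 2 (COL1A1 and PDGFRB) averaged at least 1 FPKM. The 8 summed to 5.97 and 7.40 FPKM in the controls and 12.3 and 10.5 FPKM in shLOXL2. Their part in the results below was not tested. In bulk RNA, fewer cells that express a gene and less RNA per cell cannot be told apart.

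The sequences just upstream of GALNT3 and GALNT7, the members that fell, are shown here with that of GALNT10, the closest relative of GALNT7 among the 10, whose values went the other way. They are the 250 bases before the gene's start in RefSeq (GRCh38.p14), read 5′ to 3′ on the gene's strand. GALNT3 lies on the minus strand (chr2:165794248-165794497), and GALNT7 (chr4:173168561-173168810) and GALNT10 (chr5:154190483-154190732) lie on the plus strand. Capitals mark CACCTG, the E-box that zinc-finger factors of the SNAIL and ZEB families read, and GGGCGG, the GC box, each on either strand.
GALNT3: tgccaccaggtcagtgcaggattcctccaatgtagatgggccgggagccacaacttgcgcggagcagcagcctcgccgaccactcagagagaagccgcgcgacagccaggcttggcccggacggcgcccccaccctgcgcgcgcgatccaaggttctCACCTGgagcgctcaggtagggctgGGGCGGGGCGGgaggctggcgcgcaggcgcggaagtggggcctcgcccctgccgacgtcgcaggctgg
GALNT7: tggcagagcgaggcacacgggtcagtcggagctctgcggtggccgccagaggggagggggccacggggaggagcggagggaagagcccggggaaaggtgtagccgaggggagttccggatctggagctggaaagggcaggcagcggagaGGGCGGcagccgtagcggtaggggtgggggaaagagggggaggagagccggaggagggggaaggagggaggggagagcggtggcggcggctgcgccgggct
GALNT10: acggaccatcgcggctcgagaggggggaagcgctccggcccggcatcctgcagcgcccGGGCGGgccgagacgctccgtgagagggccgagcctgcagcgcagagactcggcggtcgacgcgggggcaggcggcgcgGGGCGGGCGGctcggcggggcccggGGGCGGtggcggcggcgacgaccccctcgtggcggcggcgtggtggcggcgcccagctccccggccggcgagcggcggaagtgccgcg
The GALNT3 window held 1 E-box, starting 93 bases before the start site, and 2 overlapping GC boxes. GALNT7 had 1 GC box and GALNT10 had 4, and neither window held CACCTG. Of 35116 windows of this length in the table, 17.5% held the E-box and 42.6% the GC box. The table gave windows for 7 of the 10 genes, 10 windows in all, and an E-box was also found in those of GALNT12 and GALNT14. No window of the 10 held the AP-1 site TGANTCA (6.57% of all windows) or TATAAA (10.7%). CCAAT (32.0% of all windows), not marked above, was found for GALNT2 and GALNT3 and in 1 window each of GALNT1 and GALNT14. The GALNT3 window was 71.6% G and C, that of GALNT7 72.4% and that of GALNT10 82.4%, against a median of 58.0% over all windows. These matches describe letters only.

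In shControl cells the most abundant members were GALNT10 and GALNT1, with means of 54.6 and 47.0 FPKM, whose libraries overlapped in range. GALNT2 followed at 32.5 FPKM, then GALNT7 at 21.1 and GALNT3 at 19.6 FPKM. GALNT6 (11.4 FPKM), GALNT4 (8.48 FPKM) and GALNT5 (7.43 FPKM) formed a middle tier, and GALNT14 (2.24 FPKM) and GALNT12 (0.701 FPKM) were low. From GALNT1 down, no neighbours in this order overlapped. In shLOXL2 cells GALNT10, GALNT1 and GALNT2 kept the first 3 places, GALNT6 moved up to the 4th and GALNT3 dropped from the 5th to the 8th. There GALNT5 overlapped GALNT4 and GALNT14 overlapped GALNT12. In shControl, GALNT10 stood above 79.05% of the protein-coding genes tested and GALNT3 above 51.1%. In shLOXL2, GALNT3 stood above 24.3%.

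**Figure D1:**
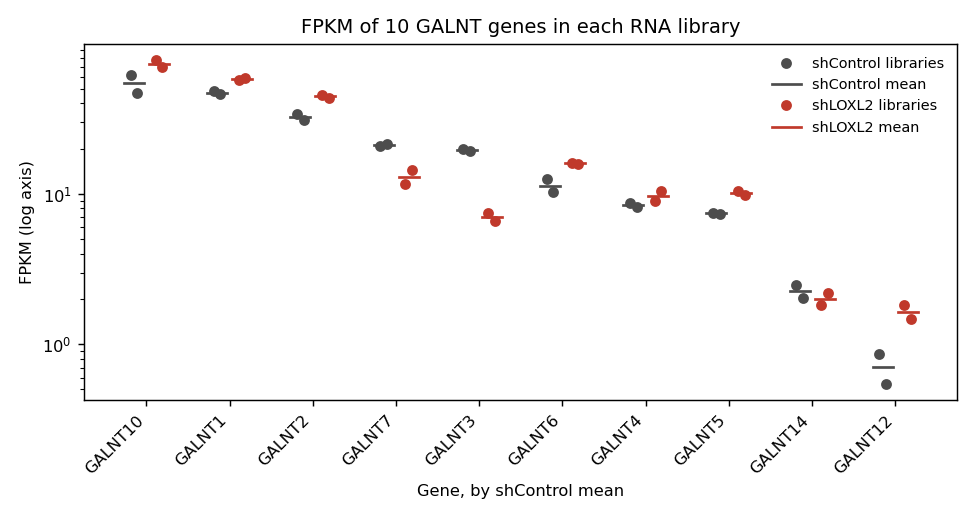
FPKM of the 10 GALNT genes on a log axis, with each point 1 RNA library (grey shControl, red shLOXL2) and each line a group mean of 2 libraries. GALNT3 and GALNT7 are the genes whose red points lie wholly below the grey ones, and GALNT14 is the one whose points overlap.

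GALNT3 modifies the phosphate hormone FGF23, and its loss in people causes calcium phosphate deposits in soft tissue. It stood at 20.0 and 19.2 FPKM in the controls and at 7.41 and 6.61 FPKM in shLOXL2. Both shLOXL2 libraries lay far below both controls, at 35.8% of the control mean. This is a log2 change of -1.36 ± 0.0703 (SE, n = 2 per group), on the log2(FPKM + 1) scale used for all log2 changes here, which understates the change of low genes. Of 11216 protein-coding genes tested, 8, GALNT3 among them, had a log2 change this low on that scale. The order depends on the pseudocount. MFAP3L, at -1.28, is not among the 8, but with a pseudocount of 0.1 FPKM it was at -1.61 and GALNT3 at -1.47.

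GALNT7, an enzyme that follows on from an earlier sugar, was the other member that fell. It stood at 20.7 and 21.5 FPKM in the controls and at 11.6 and 14.5 FPKM in shLOXL2. The groups did not overlap, and the shLOXL2 libraries differed from each other more than the controls did. The mean was 61.7% of control, with a log2 change of -0.66 ± 0.119 (SE, n = 2 per group). Without shLOXL2 replicate 1 the log2 change was -0.52, and without shLOXL2 replicate 2 it was -0.81. GALNT7-DT, a noncoding RNA that starts beside GALNT7 in the other direction, stood at 0.903 and 1.17 FPKM in the controls and 0.707 and 0.912 FPKM in shLOXL2, overlapping.

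The broadly acting starters GALNT1 and GALNT2 were higher in both shLOXL2 libraries. GALNT1 stood at 48.0 and 46.1 FPKM in the controls and at 56.9 and 59.0 FPKM in shLOXL2, a log2 change of 0.30 ± 0.0417 (SE, n = 2 per group). GALNT2 stood at 33.9 and 31.2 FPKM in the controls and at 45.7 and 43.3 FPKM in shLOXL2, a log2 change of 0.44 ± 0.0602. GALNT5, a larger isoenzyme of the family, had controls that lay close together. It was 7.47 and 7.39 FPKM in the controls and 10.4 and 9.84 FPKM in shLOXL2, a log2 change of 0.40 ± 0.0503. For these 3 genes the group means differed by more than the libraries within a group did.

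GALNT6 and GALNT10 were also higher in both shLOXL2 libraries, with a wider spread between controls. GALNT6, the closest relative of GALNT3 and an isoenzyme often abundant in breast carcinoma, stood at 12.5 and 10.2 FPKM in the controls and at 16.1 and 15.9 FPKM in shLOXL2. Its log2 change was 0.46 ± 0.106 (SE, n = 2 per group). GALNT10 stood at 61.9 and 47.2 FPKM in the controls and at 77.6 and 69.6 FPKM in shLOXL2, with a log2 change of 0.43 ± 0.16. The GALNT10 value depended on which control was kept: its log2 change was 0.63 without shControl replicate 1 and 0.24 without shControl replicate 2. GALNT6 ran from 0.59 without shControl replicate 1 to 0.33 without shControl replicate 2.

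GALNT12, which is expressed mainly in the digestive tract, stood at 0.856 and 0.545 FPKM in the controls and at 1.82 and 1.46 FPKM in shLOXL2. Its control mean was below the filter of 1 FPKM and it was tested because of its shLOXL2 values, so its difference cannot be read like the others. The log2 change of 0.64 ± 0.186 (SE, n = 2 per group) became 1.14 when the pseudocount was 0.1 FPKM and 0.22 when it was 5 FPKM. GALNT4, which like GALNT12 prefers peptides that already carry a sugar, stood at 8.73 and 8.23 FPKM in the controls and at 8.96 and 10.5 FPKM in shLOXL2. The values of GALNT4 are uncertain, since the gene lies within the span of POC1B and shares sequence with the read-through gene POC1B-GALNT4, listed at 1.06 to 2.31 FPKM. GALNT14, linked to sensitivity of tumour cells to death-receptor ligands, stood at 2.46 and 2.03 FPKM in the controls and at 1.81 and 2.18 FPKM in shLOXL2, the only member whose groups overlapped.

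All 10 members averaged at least 1 FPKM across the 4 libraries and so were tested. At an adjusted p below 0.05 from limma, fitted over 16987 genes, 3 rose (GALNT1, GALNT2 and GALNT5), 2 fell (GALNT3 and GALNT7) and 5 did not pass. Over all genes tested 16.9% were called, 8.35% rising and 8.54% falling. The groups did not overlap for 9 of the 10 members, 7 higher and 2 lower. Over all genes tested this held for 64.6%, with 31.8% higher and 32.8% lower. All members are protein-coding, and both shares are higher among protein-coding genes. Of 11216 of those tested, 2336 (20.8%) were called and 8077 did not overlap, 3910 higher and 4167 lower. The 7 higher include GALNT12, which passed the filter only through its shLOXL2 values, so its direction is partly set by the filter. The median log2 change was 0.35 over the members, GALNT12 included, and -0.0041 over all genes tested. Because the members were chosen with this contrast known, these counts describe them and no test is given. The counts also move with the fit, from 6 that rose with protein-coding genes alone, GALNT12 among them, to 0 without a filter on low values. Without that filter GALNT3 alone of the members kept its call. When the variance prior had no trend, only GALNT3 and GALNT5 did. With any 1 of the 4 libraries left out, limma called 0 members and 0 genes of the lists below, while 5 to 7 members had an unadjusted p below 0.05.

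**Figure D2:**
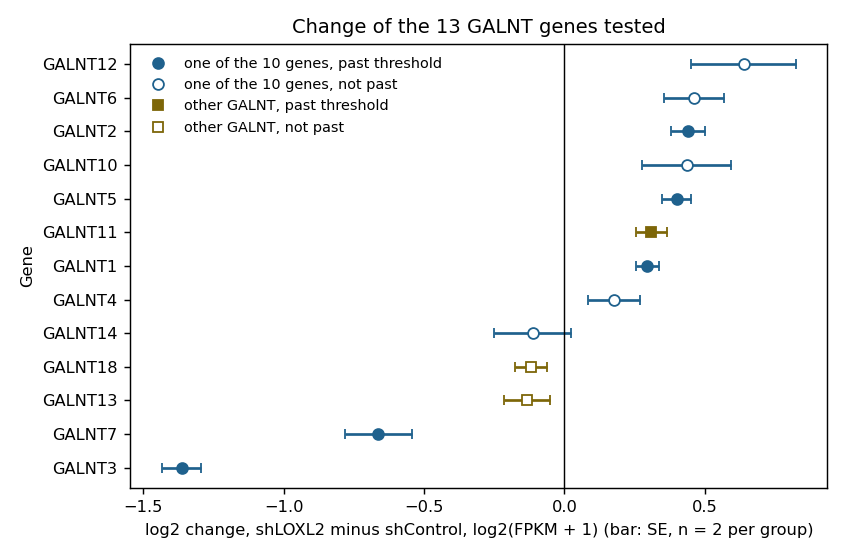
Log2 change (shLOXL2 minus shControl) of the 13 GALNT genes tested, with bars of 1 SE and n = 2 libraries per group. Circles are the 10 genes described and squares other GALNT genes, filled where limma's adjusted p was below 0.05; GALNT3 at -1.36 and GALNT7 at -0.66 stand apart on the lower side.

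Ratios between related isoenzymes within a library do not depend on how libraries are scaled. The ratio of GALNT3 to GALNT6 was 1.60 and 1.87 in the controls and 0.462 and 0.417 in shLOXL2. GALNT3 was thus the more abundant of the pair in both controls and the less abundant in both shLOXL2 libraries, with a 3.95-fold change of the ratio. The ratio of GALNT7 to GALNT10, both of which act on peptides with a sugar in place, went from 0.334 and 0.456 to 0.150 and 0.208, a 2.21-fold change. For GALNT12 over GALNT4 the ratio was 0.0981 and 0.0662 in the controls and 0.203 and 0.139 in shLOXL2. For GALNT14 over GALNT2 it was 0.0726 and 0.0649 in the controls and 0.0397 and 0.0504 in shLOXL2. For GALNT13 over GALNT1 it was 0.118 and 0.133 in the controls and 0.0982 and 0.0847 in shLOXL2. None of these 5 ratios overlapped between the groups. Over all pairs of tested genes that were above 0 in every library this held for 66.0%, so the absence of overlap does not set these pairs apart. The ratio of GALNT12 to GALNT4 rests on a gene below 1 FPKM in the controls and on uncertain values of GALNT4. Since the members were chosen on the same contrast, the ratios are a description.

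**Figure D3:**
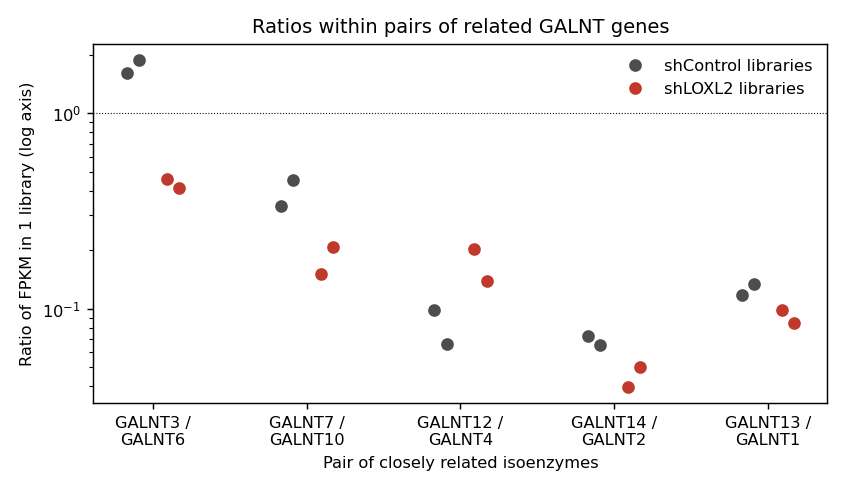
Ratio of FPKM between 2 related GALNT genes within each RNA library, on a log axis, with each point 1 library (grey shControl, red shLOXL2) and a dotted line at equal levels. The ratio of GALNT3 to GALNT6 crosses that line, from 1.60 and 1.87 to 0.462 and 0.417.

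Summed over all 20 GALNT genes, the transcripts came to 247.7 and 223.8 FPKM in the controls and to 271.7 and 266.4 FPKM in shLOXL2. The shLOXL2 mean was 1.14 times the control mean, while the sum of all genes was 1.095 times. The GALNT sums did not overlap as deposited. They overlapped when libraries were rescaled to the same sum outside mitochondrial genes (1.08 times) or over all genes (1.04 times). Of single members, GALNT4 overlapped under both of these scalings, and GALNT14 was lower without overlap under the second. The 10 members made up 87.4% and 86.5% of the sum in the controls and 87.65% and 87.4% in shLOXL2. GALNT3 took 8.08% and 8.56% of it in the controls and 2.73% and 2.48% in shLOXL2, and GALNT7 took 8.35% and 9.625% against 4.27% and 5.43%. GALNT2 took 13.7% and 13.95% in the controls and 16.8% and 16.2% in shLOXL2. GALNT7 and GALNT10 together held 33.3% and 30.7% in the controls and 32.8% and 31.5% in shLOXL2, overlapping.

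**Figure D4:**
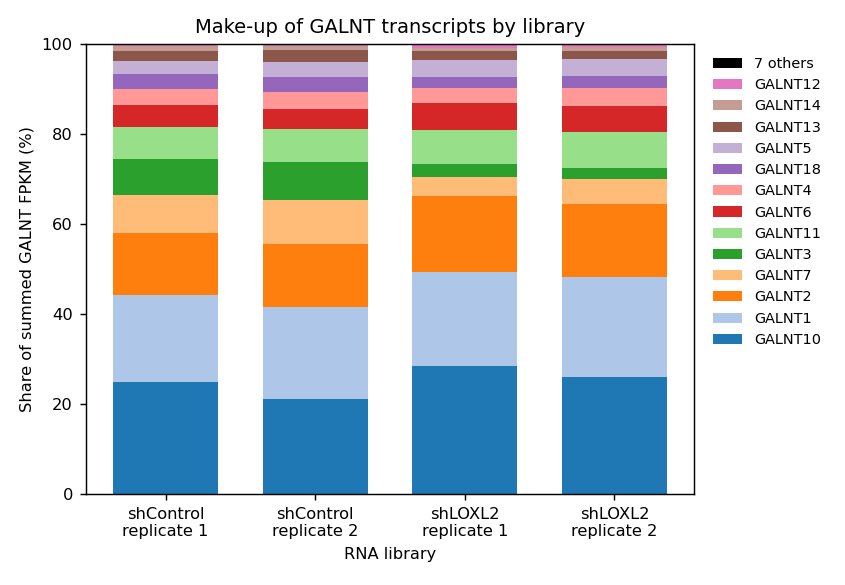
Share of the summed FPKM of 20 GALNT genes taken by each gene, in percent, with 1 bar per RNA library. The bands of GALNT3 (8.08% and 8.56% in shControl, 2.73% and 2.48% in shLOXL2) and GALNT7 narrow, and those of GALNT2 and GALNT10 widen.

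Of the other 10 GALNT genes, 3 were tested and 7 lay below the filter, with the highest of these averaging 0.173 FPKM. GALNT11, an isoenzyme known to modify receptors of the LDL receptor family, rose from 17.5 and 16.1 to 20.8 and 21.1 FPKM, a log2 change of 0.31 ± 0.0547 (SE, n = 2 per group, limma adjusted p = 0.0466). GALNT13, the closest relative of GALNT1, stood at 5.66 and 6.13 FPKM in the controls and 5.58 and 5.002 FPKM in shLOXL2 (limma adjusted p = 0.340). GALNT18 stood at 7.83 and 7.57 FPKM in the controls and 6.80 and 7.22 FPKM in shLOXL2 (limma adjusted p = 0.234). GALNTL5 was listed at 0 in all 4 libraries. The call of GALNT11 was lost with a pseudocount of 5 FPKM (adjusted p = 0.0503), without a filter (0.0957) and when the variance prior had no trend (0.0682).

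The counts of the lists that follow stand beside 8.35% rising and 8.54% falling over all genes tested. Of 11216 protein-coding genes tested, 1167 rose and 1169 fell. Genes that extend and cap the O-glycan had 2 that rose and 0 that fell of 9 tested, with a median log2 change of 0.092. At an unadjusted p below 0.05 from limma the counts were the same, 2 and 0. ST3GAL1, the sialyltransferase that caps the core structure galactose on GalNAc, rose from 24.6 and 24.8 to 48.0 and 46.3 FPKM, a log2 change of 0.91 ± 0.0364 (SE, n = 2 per group, limma adjusted p = 0.0116). B3GNT3, which extends core O-glycans with N-acetylglucosamine, rose from 2.40 and 2.53 to 5.65 and 5.67 FPKM, a log2 change of 0.94 ± 0.0674 (limma adjusted p = 0.0143). C1GALT1, which turns the Tn antigen into that core, stood at 40.3 and 41.9 FPKM in the controls and 44.2 and 43.5 FPKM in shLOXL2 and did not pass (limma adjusted p = 0.186). Its chaperone gene C1GALT1C1 stood at 28.4 and 27.4 FPKM in the controls and 28.7 and 30.9 FPKM in shLOXL2 and did not pass (limma adjusted p = 0.334).

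Genes that make and carry the sugar donors moved in both directions, and 1 rose and 3 fell of 13 tested, with a median log2 change of 0.044. At an unadjusted p below 0.05 from limma, 4 were higher and 4 lower. GFPT1, the entry enzyme of the hexosamine pathway, fell from 41.0 and 39.6 to 32.4 and 33.4 FPKM (limma adjusted p = 0.0313). UAP1, which makes the UDP-linked amino sugar, fell from 97.9 and 106.4 to 75.0 and 71.2 FPKM, a log2 change of -0.48 ± 0.0602 (SE, n = 2 per group, limma adjusted p = 0.0281). SLC35A1, the Golgi carrier of the sialic acid donor, fell from 13.5 and 13.04 to 8.49 and 9.03 FPKM (limma adjusted p = 0.0198). SLC35A2, the Golgi carrier of UDP-galactose, rose from 16.9 and 16.8 to 21.5 and 21.9 FPKM (limma adjusted p = 0.0210). Without a filter the calls of GFPT1 (limma adjusted p = 0.0599) and UAP1 (0.0607) were lost. That of GFPT1 was also lost when the variance prior had no trend (0.0553).

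Enzymes that start other kinds of O-linked sugar had 4 that rose and 1 that fell of 10 tested, with a median log2 change of 0.12. At an unadjusted p below 0.05 from limma, 4 were higher and 2 lower. COLGALT2, a collagen galactosyltransferase, rose from 2.04 and 1.86 to 4.76 and 4.39 FPKM, a log2 change of 0.92 ± 0.0894 (SE, n = 2 per group, limma adjusted p = 0.0200). The related COLGALT1 rose from 95.2 and 104.7 to 124.5 and 128.2 FPKM (limma adjusted p = 0.0483). That call was lost with a pseudocount of 5 FPKM (adjusted p = 0.0503), without a filter (0.0985) and when the variance prior had no trend (0.0735). POFUT2, which adds fucose to thrombospondin repeats, rose from 23.6 and 24.5 to 34.1 and 33.3 FPKM (limma adjusted p = 0.0170). OGT, which adds GlcNAc to nuclear and cytosolic proteins, rose from 51.5 and 48.9 to 61.5 and 59.7 FPKM (limma adjusted p = 0.0410). POGLUT1, which adds glucose to EGF repeats of Notch, fell from 12.6 and 11.2 to 8.30 and 7.88 FPKM (limma adjusted p = 0.0375). Without a filter the calls of COLGALT2 (limma adjusted p = 0.0573), OGT (0.0794) and POGLUT1 (0.0858) were lost as well. When the variance prior had no trend, those of OGT (0.0686) and POGLUT1 (0.0531) were.

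No MUC gene of the list averaged 1 FPKM in these cells. Of 23 mucins and mucin-domain proteins 18 lay below the filter, MUC1 among them at 0.369 and 0.827 FPKM in the controls and 1.35 and 0.113 FPKM in shLOXL2. Of the 5 tested, 1 rose and 1 fell. PODXL, the sialomucin podocalyxin, rose from 30.8 and 29.8 to 47.7 and 42.5 FPKM (limma adjusted p = 0.0287). CD44, the hyaluronan receptor, fell from 456.7 and 447.3 to 348.8 and 340.0 FPKM (limma adjusted p = 0.0172). Of 11 genes tied to the retention of enzymes in the Golgi or to its ion content, 0 rose and 1 fell. The gene that fell was COG3 of the COG tethering complex, from 17.1 and 15.9 to 12.1 and 12.3 FPKM (limma adjusted p = 0.0286). At an unadjusted p below 0.05 from limma, 2 of the 11 were higher and 2 lower. Over the 6 lists together 9 genes rose and 6 fell of 51 tested, with a median log2 change of 0.077. These 15 calls are 29.4% of the genes tested in the lists, beside 16.9% of all genes and 20.8% of protein-coding genes tested. The lists were chosen with earlier results known, so this is a description. Without a filter on low values 6 listed genes passed, and 10 did when the variance prior had no trend.

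**Figure D5:**
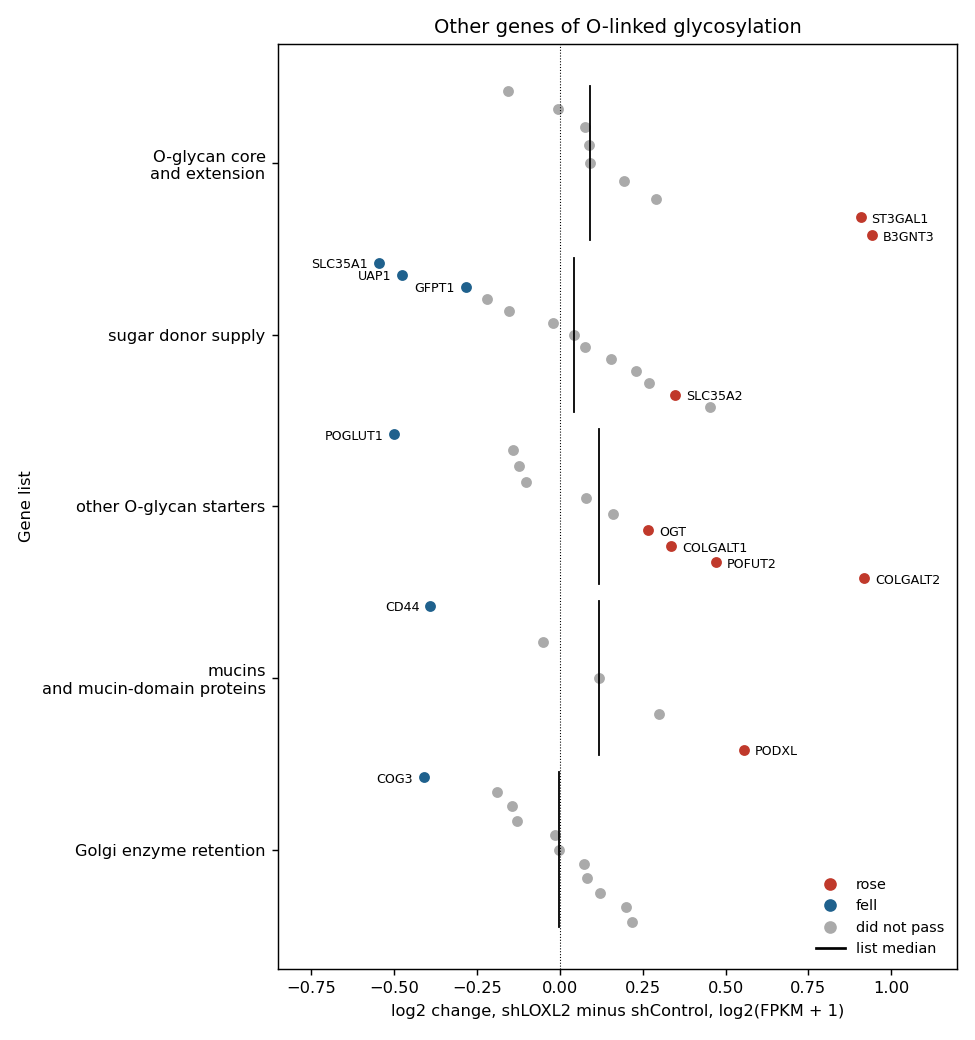
Log2 change (shLOXL2 minus shControl) of the tested genes of 5 lists around O-linked glycosylation, 1 point per gene, with a bar at the list median. Red points rose and blue points fell at a limma adjusted p below 0.05; ST3GAL1 at 0.91, COLGALT2 at 0.92 and B3GNT3 at 0.94 lie farthest out.

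The 5 protein-coding genes whose profile was nearest to that of GALNT3 were MFAP3L, RBBP4, NNMT, PDLIM3 and CAV2. Likeness was the Euclidean distance over 4 centred log2(FPKM + 1) values, 0.162 for MFAP3L and 0.192 for CAV2, and with 4 libraries in 2 groups it mostly reads the difference between the groups. MFAP3L stood at 5.999 and 6.43 FPKM in the controls and 1.97 and 1.96 FPKM in shLOXL2. RBBP4, a histone-binding subunit of several chromatin complexes, stood at 45.5 and 41.3 FPKM in the controls and 19.4 and 17.4 FPKM in shLOXL2. CAV2, the caveolin-2 gene, stood at 73.7 and 71.4 FPKM in the controls and 29.5 and 30.8 FPKM in shLOXL2.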

How the data were processed

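RNA was measured in 4 of the 9 samples of the series. The authors deposited FPKM values, with a column for each RNA library, and the means and fold changes beside them were left out. The CT and LOX columns were matched to the shControl and shLOXL2 libraries and their replicate numbers by name, since the labels do not spell these column names. The submitters' processing notes list Bowtie, Cufflinks and the build GRCh37, with no version or role, and no source used here names the gene annotation. Since FPKM holds no read count, library depth is unknown and intervals for counting error cannot be had. The deposited peak lists were not used, since no GRCh37 annotation was used here.

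Identifiers were matched to symbols for 39694 of 63657 genes. The 16987 genes that averaged 1 FPKM or more were fitted as log2(FPKM + 1) with limma 3.58.1 (R 4.3.3), comparing shLOXL2 with shControl, n = 2 each, with an intensity trend, two-sided, Benjamini-Hochberg adjusted, threshold 0.05. The fit was tested on simulated data. The members and the 6 gene lists (82 genes) were chosen with earlier results of these data known, and the rule for named genes was fixed with them. It took all members, LOXL2, the list genes past the threshold (the most abundant where none passed), nearest profiles and neighbours. Some list genes named with values beyond that, among them C1GALT1, C1GALT1C1 and MUC1, were chosen after their values were seen. A list gene and a cell marker are not reported here, and the counts leave them out. Alternatives covered pseudocount, filter, scaling, variance prior, gene set, a replicate block and each library left out. Promoter windows are from RefSeq (GRCh38.p14). Tables and plots used Python 3.11.15, numpy 2.4.6, pandas 2.3.3 and matplotlib 3.10.9.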

Additional observations from a re-analysis of the deposited data

How the results depend on the processing

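Depth is unknown and each group has 2 libraries, which limits every call. Without a filter on low values 601 genes rose and 542 fell, and by limma's adjusted p 0 members rose and 1 fell (7 at an unadjusted p below 0.05). In that fit 0 other GALNT genes and 0 mucin genes rose and 0 Golgi genes fell. The donor list had 1 that rose and 1 that fell, and the other starters 1 and 0. When the variance prior had no trend, 926 genes rose, 1 member rose and 1 fell, 0 other GALNT genes rose, and 2 other starters rose and 0 fell. With protein-coding genes alone 2136 genes rose and 2178 fell, 6 members rose, 4 donor genes rose and 4 fell, and 2 mucin genes rose. At a filter of 5 FPKM, which removes B3GNT3, 1 extension gene and 2 donor genes rose, and with a pseudocount of 5 FPKM 0 other GALNT genes and 3 other starters did. With quantile normalization 1 member fell, as GALNT7 was at an adjusted p of 0.0532.

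With the replicate number as a block, limma called 0 genes, while 5519 had an unadjusted p below 0.05, 8 members among them. The labels do not say whether same-numbered libraries were handled together. Deviations of same-numbered libraries correlated at -0.00127 across 16987 genes, which cannot settle this with 2 libraries per group. With 1 library left out, 18 to 220 genes rose and 70 to 217 fell. In these 4 fits 0 members and 0 listed genes passed, with 5 to 7 members and 14 to 18 listed genes at an unadjusted p below 0.05. The log2 change of GALNT3 ran from -1.47 with a pseudocount of 0.1 FPKM to -1.03 with 5 FPKM.

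Of the 38 genes recomputed one by one under these settings (the members, LOXL2, listed genes given with a p, nearest profiles and neighbours that passed), 0 changed the sign of the log2 change. Most settings could not change it. The filter, variance prior, gene set and block leave the log2 change as it is. A new pseudocount or a library left out cannot reverse a gene whose groups do not overlap, as held for nearly all of these genes. The cause of the lost calls was not tested. By design, the block or leaving out a library leaves a single residual degree of freedom. The summed GALNT ratio ran from 1.083 to 1.202 over its alternatives, and was 1.043 after rescaling to the sum of all genes, chosen after seeing the data.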

Other observations

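The nearest protein-coding genes on each side of the members, by gene order in RefSeq, were read from the same fit. Of 20 such neighbours 17 had a row in the table, 9 were tested, 1 rose and 2 fell. Over all genes tested 8.35% rose and 8.54% fell, and of 11216 protein-coding genes tested 1167 rose and 1169 fell. The other neighbours tested did not pass, with log2 changes of both signs, from -0.17 (INO80C, next to GALNT1) to 0.13 (POC1B, next to GALNT4). A link between neighbours and members was not tested. HMGB2, a chromatin protein gene next to GALNT7, rose from 315.2 to 395.7 FPKM on average (limma adjusted p = 0.0198), while GALNT7 fell. GPD2, the mitochondrial glycerol phosphate dehydrogenase gene next to GALNT5, fell from 16.7 to 10.4 FPKM (limma adjusted p = 0.0131), while GALNT5 rose. URB2, next to GALNT2, fell from 8.59 to 6.71 FPKM (limma adjusted p = 0.0442), while GALNT2 rose. The URB2 call was lost with a pseudocount of 5 FPKM (adjusted p = 0.0533), a filter of 5 FPKM (0.0562), quantile normalization (0.0597), no trend in the variance prior (0.0543) and no filter (0.108). The neighbour of GALNT3 with a row, CSRNP3, averaged 0.637 FPKM in the controls and 0.291 FPKM in shLOXL2, below the filter. SLC4A8, whose span overlaps that of GALNT6, averaged 0.841 and 0.861 FPKM, also below it.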
